A study of Homo sapiens with 6 samples.

Results

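Many human genes were first annotated under the name of a genomic clone, such as RP11-674N23.1 or AC006262.5, and some have since received a symbol. The loci described here are the rows of the deposited table whose symbol is such a clone name (RP with digits and a hyphen, CTA-, CTB-, CTC- or CTD-, or AC, AL or AP with 6 digits and a dot) and whose raw read count averaged at least 50 over the 6 libraries. They number 93 of the 4546 genes listed, out of 598 clone-named rows in all. They were chosen by their reads and by the contrast described below, since the authors' deposited table lists only genes that differed between the groups, with a smallest absolute log2 fold change of 1.00 and a largest adjusted p of 0.0497. Every difference between the groups is therefore given as a description, and the counts of loci past a threshold further on are not evidence for any locus.

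The cells were A549, an established human lung adenocarcinoma line with wild-type p53. One group of 3 libraries came from cells kept for 48 hours in 50 nM mitoxantrone, an anthracenedione that traps topoisomerase II on cut DNA. The other group of 3 came from cells kept for the same time in DMSO, the solvent, at a dilution of 1 in 1000. The labels name no genetic change, and do not say whether the libraries of a group came from separate cultures. Standard errors therefore rest on the spread of these 6 samples, which may be technical variation, in a fit that shares spread across the listed genes.

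Clone names mostly mark long noncoding RNAs and pseudogenes that had no descriptive symbol in the annotation used, and many have since received one. A long noncoding RNA can lie between coding genes, run on the strand opposite a coding gene (antisense), or start beside a coding gene's promoter, and some act on the neighbouring gene while most have no known role. A pseudogene is a copy of a coding gene, often nearly identical to it in sequence, and damage to DNA is known to raise some noncoding RNAs through the transcription factor p53.

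By the Ensembl identifiers, 86 of the 93 loci have an entry in GENCODE 29, a catalogue of human genes. It types 24 as antisense, 22 as intergenic, 22 as pseudogenes, 15 as other noncoding RNAs and 3 as protein coding, and 7 have no entry there. The noncoding label thus fails for 3 loci: AC004381.6 (REXO5, an exonuclease), RP11-27I1.4 (B3GALT9, of a glycosyltransferase family) and RP11-139H15.1 (PIGBOS1, a small mitochondrial protein). The gene name table gives a current symbol for 53 loci, which is printed in parentheses at a locus's first mention.

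Library totals were 16681380 to 19352443 reads with mitoxantrone and 20380674 to 21781220 reads with DMSO, as recovered from the deposited FPKM. The 93 loci held 13371, 14593 and 15827 reads in mitoxantrone libraries 1, 2 and 3, against 16357, 14788 and 16021 reads in DMSO libraries 1, 2 and 3. Of 5 epithelial markers, 3 were listed (KRT19, KRT8 and CDH1), with a summed FPKM of 1497 to 1612 with mitoxantrone and 638 to 725 with DMSO. Of 5 leukocyte markers only CD14 was listed, at 2.45 to 2.82 FPKM with mitoxantrone and 0.56 to 0.78 FPKM with DMSO, and of 5 fibroblast markers only COL1A1, at 1.21 to 1.53 FPKM with mitoxantrone and 3.09 to 3.51 FPKM with DMSO. Endothelial CDH5 and VWF, 2 of 3, summed to 0.11 to 0.12 FPKM with mitoxantrone and 0 to 0.01 FPKM with DMSO. Markers that are not listed were not analysed here, and the part of these markers in the results was not tested.

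Sequences are shown for 4 loci with large changes that the reference tables hold. The first is RP3-326I13.1 (PINCR, named as a p53-induced noncoding RNA), one of the 2 loci with the largest rises, and the second is AC006262.5 (IGFL2-AS1), the rising locus with the most normalized reads under mitoxantrone. Each of these lines gives the first 300 bases of a GENCODE 29 transcript in GRCh38, with T for U. PINCR-201 is 2228 bases long, which is also the deposited length of the locus, and its gene lies at chrX:43176994-43226598 on the plus strand. IGFL2-AS1-203 is 1037 bases long and is 1 of 6 transcripts of a gene at chr19:46189166-46203083 on the minus strand, whose deposited length is 1751 bases.
PINCR-201: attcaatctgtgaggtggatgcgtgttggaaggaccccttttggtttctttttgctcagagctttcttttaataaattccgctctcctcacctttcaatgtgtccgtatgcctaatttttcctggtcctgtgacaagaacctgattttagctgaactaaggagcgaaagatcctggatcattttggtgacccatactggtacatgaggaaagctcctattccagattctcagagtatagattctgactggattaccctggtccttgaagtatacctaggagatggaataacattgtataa
IGFL2-AS1-203: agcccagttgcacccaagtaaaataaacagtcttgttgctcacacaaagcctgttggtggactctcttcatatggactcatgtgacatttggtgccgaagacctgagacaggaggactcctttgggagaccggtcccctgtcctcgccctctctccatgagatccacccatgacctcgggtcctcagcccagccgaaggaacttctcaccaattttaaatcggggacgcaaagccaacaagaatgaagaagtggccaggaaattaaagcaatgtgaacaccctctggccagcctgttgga

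The next 2 are RefSeq promoters (GRCh38.p14, 250 bases before to 50 after the start) of a locus that rose and one that fell, RP11-674N23.1 (GACAT2, at chr18:8707572-8707871, minus strand) and RP11-125B21.2 (VLDLR-AS1, at chr9:2622324-2622623, minus strand). Capitals mark CCAAT on either strand, where ATTGG is its reverse complement.
GACAT2: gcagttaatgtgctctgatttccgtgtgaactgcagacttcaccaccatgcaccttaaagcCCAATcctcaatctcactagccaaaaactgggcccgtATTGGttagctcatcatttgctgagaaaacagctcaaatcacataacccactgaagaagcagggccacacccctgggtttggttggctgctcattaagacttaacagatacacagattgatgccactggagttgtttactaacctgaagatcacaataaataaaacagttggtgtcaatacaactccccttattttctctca
VLDLR-AS1: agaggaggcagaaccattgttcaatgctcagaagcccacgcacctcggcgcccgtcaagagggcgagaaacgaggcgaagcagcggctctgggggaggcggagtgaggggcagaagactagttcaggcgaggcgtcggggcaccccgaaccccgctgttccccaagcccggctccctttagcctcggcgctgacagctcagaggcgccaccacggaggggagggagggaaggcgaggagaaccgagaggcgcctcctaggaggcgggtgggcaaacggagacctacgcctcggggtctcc
CCAAT stood on both strands of the GACAT2 window and was not among the letters of the VLDLR-AS1 window. Of the 27 loci with a RefSeq promoter, 9 held it, 4 of 11 that rose and 5 of 16 that fell, beside 34.6% of all 35116 promoters. The letters TTTGAA, on either strand, were found for 2 of the 27 loci. By promoter they were in 2 of the 32, beside 15.2% of all promoters. No capitals mark a site shown to be bound.

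Clone-named loci went both ways under mitoxantrone. With edgeR's quasi-likelihood test refitted over all 4546 genes (Benjamini-Hochberg adjusted p under 0.05), 48 of the 93 were higher and 45 lower. All 4546 listed genes pass that test, so the background is 100%, with 58.9% of listed genes higher and 41.1% lower. Among the 2615 listed genes with a mean of at least 50 reads, 44.6% were higher and 55.4% lower. In each of the 93 loci every mitoxantrone library lay on one side of every DMSO library, as in 100% of the listed genes with that many reads and 98.3% of all listed genes. Nothing is read from these counts, since the contrast chose the loci. In these bulk samples, fewer cells of a type and less RNA per cell cannot be told apart.

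The sizes of the changes are on the log2 scale, mitoxantrone over DMSO, with positive values higher with mitoxantrone. The median was 1.46 over the 48 loci that rose and -1.45 over the 45 that fell, beside 1.46 and -1.45 over the other listed genes with at least 50 reads. Changes beyond 2 in absolute log2 were found for 15 of the loci that rose and 6 that fell, which is 22.6% of the 93, beside 24.9% of those other genes. By direction these are 31.3% of the rising loci and 13.3% of the falling ones, beside 23.2% and 26.3% of the other genes. A further 50 loci changed by less than 1.5 in absolute log2. The median absolute change was 1.45 for the loci and 1.45 for those other genes, so nearness to the limit of listing is not particular to these loci.

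The loci were shorter and carried fewer reads than the rest of the well-read genes in the table. The median raw mean was 116 reads (50.5 to 753), beside 445 for the others, and the median deposited length was 1944 bases (285 to 7881), beside 4832. Per length, as FPKM, the medians were closer: 3.01 with mitoxantrone and 3.11 with DMSO for the loci, beside 3.40 with mitoxantrone and 5.07 with DMSO for the others. The median coefficient of variation was 12.4% with mitoxantrone and 11.0% with DMSO, beside 7.75% and 6.71% for the others, so single loci are known less precisely. In FPKM, 43 loci exceeded 5 in at least one group and 2 stayed under 1 in both. Clone-named rows under the threshold of 50 reads number 505, of which 356 were higher and 149 lower (70.5% higher), at a median of 8.67 reads. Of all listed genes 58.9% were higher, and of those with at least 50 reads 44.6%. Listed genes under 50 reads were thus also more often higher than those above, and the 70.5% is not read as a trait of clone-named rows.

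By type, the directions were nearly even in the 3 largest classes. Antisense loci divided into 13 higher and 11 lower, intergenic ones into 11 and 11, and pseudogenes into 10 higher and 12 lower. The other noncoding loci divided into 10 higher and 5 lower, those with no GENCODE 29 entry into 4 higher and 3 lower, and the 3 protein-coding loci were all lower. Among the other listed genes of the same read count, antisense genes divided into 6 higher and 11 lower, intergenic ones into 5 higher and 13 lower, and pseudogenes into 18 higher and 28 lower. Those others also held 5 higher and 9 lower of other noncoding type, 11 higher and 16 lower with no entry, and 1072 higher and 1328 lower that are protein coding. Within the pseudogenes, the 9 unprocessed copies annotated as transcribed had 2 higher and 7 lower, the 5 other unprocessed copies 3 higher and 2 lower, the 7 processed copies 5 higher and 2 lower, and the 1 processed copy annotated as transcribed was lower.

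**Figure D1:**
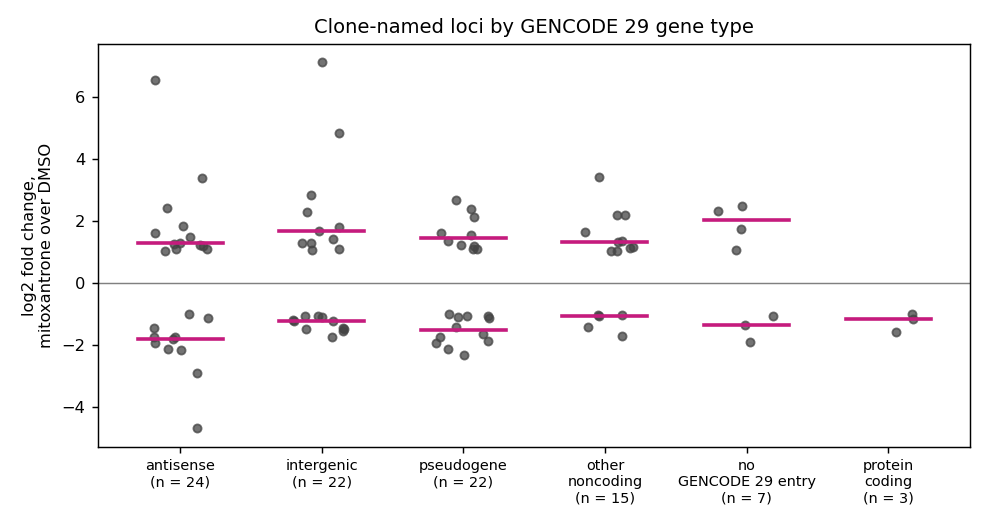
Each point is 1 of the 93 clone-named loci, placed by its GENCODE 29 type (x) and its log2 fold change, mitoxantrone over DMSO (y). Bars are medians of the rising and of the falling loci in a class, and no points lie near 0 because the table lists only changes of about 1 or more in absolute log2.

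Among the intergenic RNAs, RP3-326I13.1 (PINCR) had 108, 141 and 170 normalized reads in mitoxantrone libraries 1, 2 and 3, against 1.71, 0.929 and 0 in DMSO libraries 1, 2 and 3. It was close to undetected with DMSO, and every mitoxantrone library stood far above. The deposited span is chromosome X, 43036243 to 43085847, plus strand, in a table that names no genome build. In raw reads it had 381 with mitoxantrone and 3 with DMSO, 160.5 times as many once scaled for depth (exact 95% bounds 54.5 and 782, for counting error only). Its log2 fold change was 7.13 ± 0.38 (SE, n = 3 each), 7.94 without DMSO library 1 and 4.75 on deposited FPKM with 0.1 added. A list of long noncoding RNAs known to respond to p53, chosen with earlier results of these data known, has 11 names. Among them LINC01021 and PURPL name the same gene. From this list 3 genes were in the table and all 3 were higher, as were 58.9% of all listed genes. The other genes on the list are not in the table and were not analysed here, so the count does not describe the list as a whole. The others of the 3 carry no clone name: LINC01021 (PURPL) had 992 ± 95.3 normalized reads with mitoxantrone and 158 ± 30.4 with DMSO (SD, n = 3 each), and TP53TG1 had 500 ± 38.3 with mitoxantrone and 119 ± 3.64 with DMSO.

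The locus AC006262.5 (IGFL2-AS1) had 1027, 1026 and 1057 normalized reads with mitoxantrone, against 41.2, 28.8 and 37.1 with DMSO. Its mitoxantrone libraries were almost level, and the log2 fold change was 4.85 ± 0.12. Per length it had 29.8 FPKM with mitoxantrone and 1.09 FPKM with DMSO. It lies at 46692423 to 46706340 on chromosome 19, minus strand, among the IGFL genes, which encode small secreted proteins of the insulin growth factor-like family.

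That stretch of chromosome 19 held 8 listed genes, counting AC006262.5 itself and those within 100 kb of it. All 8 were higher with mitoxantrone, in a table where 58.9% of genes were. The coding gene IGFL2 had 398 ± 38.1 normalized reads with mitoxantrone and 31.3 ± 4.62 with DMSO, a log2 fold change of 3.65 ± 0.15. Beside it the intergenic AC006262.4 had 452, 376 and 340 normalized reads with mitoxantrone, against 58.3, 54.8 and 49.1 with DMSO, a log2 fold change of 2.84 ± 0.14. Its 3 mitoxantrone libraries spread more widely than those of AC006262.5, with no overlap with DMSO. IGFL1P1, a pseudogene inside the span of AC006262.5 on the other strand, had a log2 fold change of 5.65 ± 0.30, and AC007193.6, which overlaps AC006262.4 and AC006262.5 on the other strand, one of 5.31 ± 0.53. AC006262.6 starts 343 bases from the start of AC006262.5 on the opposite strand and changed far less, by 1.16 ± 0.16, with 157, 135 and 119 normalized reads with mitoxantrone against 54.0, 67.8 and 62.1 with DMSO. IGFL3 was low in both groups, with 29 raw reads with mitoxantrone and 7 with DMSO, and HIF3A, a hypoxia-inducible factor subunit, had 8 raw reads with mitoxantrone and 0 with DMSO. The labels and headers do not state the use of strand in counting, so reads from overlapping genes cannot be told apart here or in the pairs below.

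**Figure D2:**
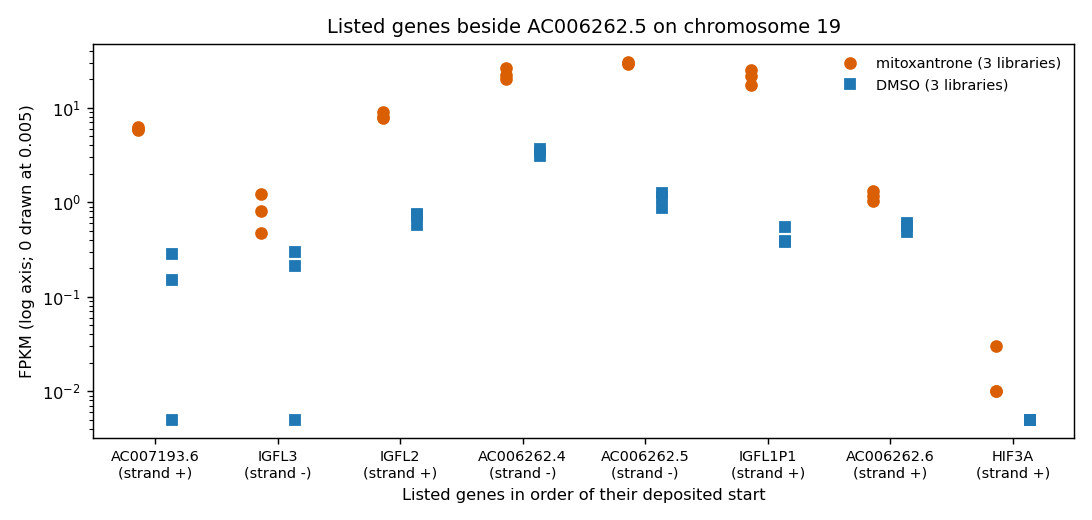
FPKM of each library (y, log axis, 0 drawn at the bottom) for 8 listed genes in chromosome order with their strand (x). These are AC006262.5 and the others within 100 kb of it. In every gene the 3 mitoxantrone libraries lie above the 3 DMSO libraries, with the narrowest gap at AC006262.6 among genes over 50 reads. In normalized reads, the groups did not overlap in 98.3% of all listed genes.

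Other intergenic loci rose less. RP1-27K12.2 had 128, 139 and 142 normalized reads with mitoxantrone, against 20.6, 26.9 and 36.2 with DMSO, a log2 fold change of 2.28 ± 0.19. RP11-346D6.6 (LNCAROD, a noncoding RNA described as an activator of the neighbouring Wnt inhibitor DKK1) had 189, 274 and 260 with mitoxantrone, against 72.0, 79.0 and 76.7 with DMSO. Its lowest mitoxantrone library was still above its highest DMSO library by more than the DMSO range. RP4-555D20.2, among the loci with the most reads, had 913, 974 and 1084 normalized reads with mitoxantrone, against 411, 361 and 441 with DMSO, and rose by 1.29 ± 0.09. The other rising intergenic loci had log2 fold changes of 1.08 to 1.80.

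The falling intergenic loci were of modest size. RP11-530C5.1 (PPP1R12A-AS2) had 127, 123 and 87.7 normalized reads with mitoxantrone, against 392, 346 and 384 with DMSO, a log2 fold change of -1.74 ± 0.13, the largest fall among the 11. Mitoxantrone library 3 was the lowest of its group, and no library crossed between groups. Per length this short RNA of 354 bases had 16.0 FPKM with mitoxantrone and 56.4 FPKM with DMSO. RP11-530C5.1 shares 954 bases with PAWR on the opposite strand. PAWR held 9.90 times the reads of RP11-530C5.1 and changed by -1.57 ± 0.08. CTC-228N24.3 (SLC12A2-DT, divergent to the chloride cotransporter gene SLC12A2) had 242, 268 and 240 normalized reads with mitoxantrone, against 577, 478 and 500 with DMSO. It is one of the longest loci in the set, at 6464 bases, so its 1.94 FPKM with mitoxantrone and 4.28 FPKM with DMSO are low for its reads.

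Antisense loci held the largest fall and, in RP11-311F12.2, one of the 2 largest rises. CTD-2510F5.4 (PRR11-AS1) had 10.9, 11.3 and 5.10 normalized reads with mitoxantrone, against 229, 268 and 206 with DMSO. The groups stood far apart, with a log2 fold change of -4.69 ± 0.23, or 25.8-fold lower with mitoxantrone. It spans 57280038 to 57281190 on chromosome 17, minus strand, wholly inside PRR11, a cell cycle gene on the plus strand. PRR11 had 48.5 ± 15.8 normalized reads with mitoxantrone and 1467 ± 38.5 with DMSO, a log2 fold change of -4.89 ± 0.12 that lies close to that of its antisense locus. Per length CTD-2510F5.4 had 1.42 FPKM with mitoxantrone and 38.9 FPKM with DMSO.

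RP11-311F12.2, of 446 bases, had 157, 139 and 149 normalized reads with mitoxantrone, against 0, 0.929 and 3.45 with DMSO. Its mitoxantrone libraries were level and its DMSO libraries held 5 raw reads in all. With mitoxantrone it had 399, 101 times as many once scaled for depth (exact 95% bounds 42.9 and 312). This locus too passed the read threshold through its mitoxantrone libraries, so the bounds are no test of a difference. The log2 fold change was 6.54 ± 0.34, 8.02 without DMSO library 3 and 6.24 on deposited FPKM with 0.1 added. The order of PINCR and RP11-311F12.2 is not fixed: their bounds overlap, and RP11-311F12.2 is the higher on FPKM and without DMSO library 3. The span, 19640995 to 19641855 on chromosome 17, plus strand, shares 559 bases, 64.9% of itself, with ALDH3A1, an aldehyde dehydrogenase on the minus strand. ALDH3A1 had 93827 ± 4105 normalized reads with mitoxantrone and 9711 ± 468 with DMSO, which over all 6 libraries is 707 times the reads of the clone-named locus. Its log2 fold change of 3.27 was smaller than that of the locus.

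RP11-674N23.1 (GACAT2), whose promoter is printed above, had 870, 884 and 879 normalized reads with mitoxantrone, against 74.6, 72.5 and 103 with DMSO. It was the most abundant antisense riser, at 54.0 FPKM with mitoxantrone and 5.45 FPKM with DMSO, and its log2 fold change was 3.39 ± 0.11. By log2 fold change, GACAT2 was followed among the 13 antisense loci that rose by CTNS-AS1 (ENSG00000262903, clone-named in the table). CTNS-AS1 had 137, 140 and 110 normalized reads with mitoxantrone, against 22.3, 29.7 and 19.8 with DMSO. RP11-224O19.2 (TGFB2-AS1, opposite the growth factor gene TGFB2) had a higher level and a smaller change, at 33.7 FPKM with mitoxantrone and 17.6 FPKM with DMSO and a log2 fold change of 1.03 ± 0.11.

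RP11-125B21.2 (VLDLR-AS1) had 10.9, 23.7 and 16.3 normalized reads with mitoxantrone, against 145, 128 and 115 with DMSO, a log2 fold change of -2.91 ± 0.23. Mitoxantrone library 1 was the lowest, and all 3 were far under DMSO. VLDLR, a lipoprotein receptor gene that shares 19562 bases of its span on the opposite strand, fell by less, -1.56 ± 0.07. RP11-244F12.3 (TPM1-AS, opposite the tropomyosin gene TPM1) had 64.1, 75.6 and 71.4 with mitoxantrone, against 277, 247 and 279 with DMSO. CTD-2267D19.2 (RARA-AS1), wholly inside the retinoic acid receptor gene RARA, had a log2 fold change of -1.74 ± 0.13 beside -1.87 ± 0.09 for RARA. RP11-875O11.3 (CHILL1) and AC129492.6 followed VLDLR-AS1 among antisense falls, at -2.17 and -2.13.

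Among the 15 other noncoding loci, AC013394.2 (CHASERR, known in mouse and human for restraining the neighbouring chromatin remodeller gene CHD2) had 186, 240 and 253 normalized reads with mitoxantrone, against 778, 750 and 709 with DMSO. Its log2 fold change was -1.71 ± 0.10, and all mitoxantrone libraries were far under the DMSO range. RP11-169F17.1 (LINC02864) had 455, 447 and 483 with mitoxantrone, against 996, 922 and 962 with DMSO, a change of -1.06 ± 0.08. By subtype, the 3 sense-overlapping loci, the 2 loci typed as 3' overlapping and the 1 bidirectional promoter locus were higher, the 1 sense-intronic locus was lower, and the 8 processed transcripts divided into 4 higher and 4 lower.

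Several rising loci lie just past a listed gene on the same strand that also rose. One sense-overlapping locus, clone-named in the table and given here by its identifier ENSG00000260912, had 140, 169 and 169 normalized reads with mitoxantrone, against 18.0, 13.9 and 12.1 with DMSO. Its log2 fold change was 3.43 ± 0.21, and that of ACER2, an alkaline ceramidase gene known as a p53 target that ends 1188 bases before it, was 3.37 ± 0.15. RP11-134G8.8 had 226, 238 and 218 normalized reads with mitoxantrone, against 38.6, 47.4 and 62.9 with DMSO, a log2 fold change of 2.19 ± 0.16, and lies 345 bases past PHLDA3, another known p53 target, at 1.65 ± 0.07. A locus with no GENCODE 29 entry, ENSG00000261452, had 571, 553 and 559 with mitoxantrone, against 90.9, 94.7 and 116 with DMSO, and lies 1819 bases past EFR3B, a membrane scaffold gene. The log2 fold changes were 2.48 ± 0.12 for ENSG00000261452 and 2.70 ± 0.09 for EFR3B. Reads that run past the annotated end of a gene were not tested as a part of these values.

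Of 11 loci with a listed neighbour on the same strand within 5000 bases, a distance chosen after the data were seen, 9 had the sign of their neighbour. Of all listed genes 58.9% were higher and 41.1% lower, and sign agreement between genes that are not neighbours was not computed. The exceptions among the 11 were CTD-2196E14.9 and ZDHHC12-DT (ENSG00000223478, clone-named in the table). CTD-2196E14.9 had 212, 246 and 219 normalized reads with mitoxantrone, against 85.7, 87.3 and 89.7 with DMSO, while PLK1, the mitotic kinase gene that begins 4528 bases after it, had 68.3 ± 7.98 with mitoxantrone and 2502 ± 98.1 with DMSO. The log2 fold changes were 1.37 ± 0.13 for CTD-2196E14.9 and -5.19 ± 0.10 for PLK1. ZDHHC12-DT changed by 1.19 ± 0.21 and PKN3, a protein kinase gene 3526 bases before it, by -1.53 ± 0.11.

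Overlap with another listed gene was found for 22 of the 93 loci, 16 on the opposite strand and 6 on the same strand, and 4 start within 2000 bases of a listed gene that runs the other way. These make 25 distinct pairs, of which 21 had 1 sign and 4 had opposite signs. Both genes of a pair were listed for the same contrast, in a table with 58.9% of genes higher and 41.1% lower, so the count is a description. Sign agreement between genes outside such pairs was not computed. Against GENCODE 29, 36 of the 86 loci with an entry overlap a coding gene on the opposite strand, 13 of them a listed one, and 11 overlap a coding gene on the same strand, 5 of them a listed one.

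Of the 4 pairs of opposite sign, 3 overlap on opposite strands and 1, RP11-29H23.5 with YY1AP1, on the same strand. RP11-152N13.5 (DNAJC9-AS1) had 19.4, 19.2 and 25.5 normalized reads with mitoxantrone, against 78.9, 65.0 and 81.0 with DMSO, while TTC18, which shares 591 bases, had 29.6 ± 8.15 with mitoxantrone and 9.92 ± 3.34 with DMSO. CTD-2600O9.1, wholly inside the kinesin gene KIFC3 on the opposite strand, had 481, 475 and 404 with mitoxantrone, against 213, 202 and 228 with DMSO, while KIFC3 had 5472 ± 346 with mitoxantrone and 11496 ± 597 with DMSO. KIFC3 holds 27.6 times the reads of CTD-2600O9.1 and fell while that locus rose. In the other 2 pairs the overlap is 1.76% of the span of RP11-29H23.5 with YY1AP1 and 3.44% of that of AC027612.4 (IGSF3P2) with AC027612.1. The shared bases number 800 and 1056, beside deposited lengths of 2505 bases for RP11-29H23.5 and 2395 bases for AC027612.4. YY1AP1 held 14.4 times the reads of RP11-29H23.5, and AC027612.1 0.38 times those of AC027612.4. The log2 fold changes were 1.34 for RP11-29H23.5 and -1.17 for YY1AP1, and 2.14 for AC027612.4 and -1.17 for AC027612.1.

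**Figure D3:**
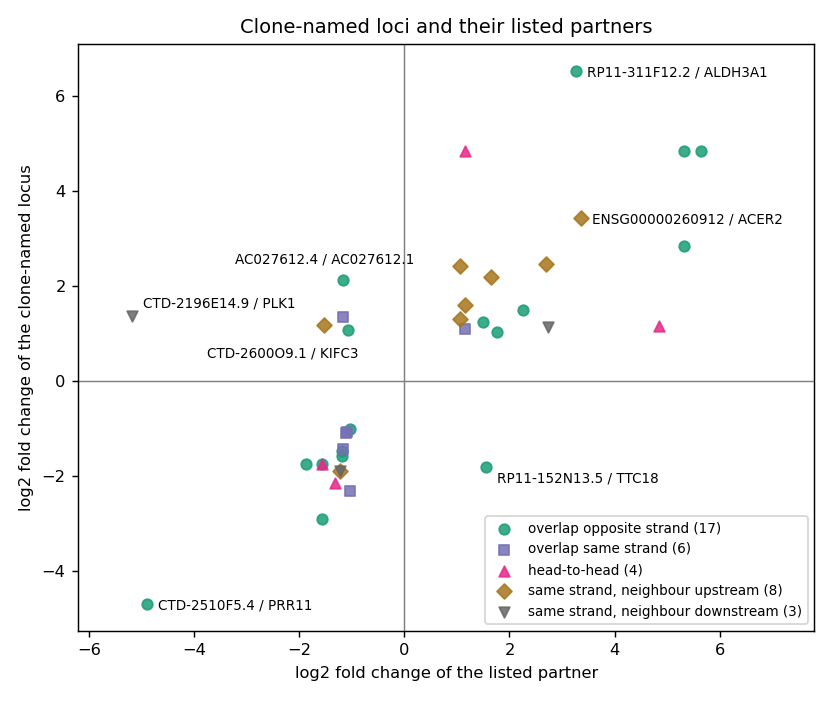
Log2 fold change, mitoxantrone over DMSO, of a clone-named locus (y) and of its listed partner (x), with marker shapes for the kind of pair. Most pairs lie in the quadrants of equal sign, and the labelled exceptions include CTD-2196E14.9 with PLK1, at 1.37 and -5.19; the pair AC006262.5 and AC006262.6 appears once for each, and RP11-530C5.1 with PAWR as an overlap and as head-to-head.

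Pseudogene reads are uncertain where a copy is close to its parent, since the counting could divide them. RP11-673C5.1 (HMGB1P6), a processed copy of HMGB1, which encodes an abundant chromatin protein, had 249, 279 and 233 normalized reads with mitoxantrone, against 726, 800 and 858 with DMSO. Per length it had 19.7 FPKM with mitoxantrone and 65.6 FPKM with DMSO, the highest of the 22 pseudogenes with DMSO. Its log2 fold change of -1.65 ± 0.10 stands beside -1.70 for HMGB1, which had 1449 normalized reads with mitoxantrone and 4715 with DMSO. Of the 22 pseudogenes, 10 carry a symbol made of a parent name, P and digits. Symbols of other forms were not searched for a parent. Of the 10, 4 have a listed parent that moved in their direction: HMGB1P6, SMG1P3, SMG1P2 and WBP1P1. SMG1, a kinase gene of nonsense-mediated decay, changed by -1.20, beside -1.13 for CTD-2547E10.2 (SMG1P3) and -1.02 for RP11-345J4.8 (SMG1P2). WBP1 changed by 1.15, beside 1.55 for AC111200.7 (WBP1P1).

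The pseudogenes that changed most either carry no symbol of that form or have a parent that is not listed. RP11-347C12.3 had 106, 125 and 79.6 normalized reads with mitoxantrone, against 13.7, 14.9 and 19.0 with DMSO, a log2 fold change of 2.69 ± 0.24. AP000769.1 (FAUP4) had 105, 112 and 106 with mitoxantrone, against 23.1, 19.5 and 19.0 with DMSO, a change of 2.38 ± 0.21. Both had mitoxantrone libraries several times above every DMSO library. RP11-244J10.1 was high per length, at 41.3 FPKM with mitoxantrone and 18.9 FPKM with DMSO. The largest fall was RP11-424C20.2, with 42.3, 35.0 and 34.7 normalized reads with mitoxantrone, against 181, 183 and 194 with DMSO. It lies wholly inside the phosphodiesterase gene PDE3A on the same strand, and the log2 fold changes were -2.32 ± 0.17 for RP11-424C20.2 and -1.03 ± 0.09 for PDE3A. RP11-564D11.3 (C10orf88B) had 25.4, 26.0 and 19.4 with mitoxantrone, against 108, 102 and 101 with DMSO, and starts 89 bases from FAM24B. AC093616.4 (ANAPC1P4) and RP11-705C15.2 fell by 1.94 and 1.89 on the log2 scale, and RP11-958N24.1 (PKD1P3), with the most reads of the pseudogenes after HMGB1P6, by 1.06. RP11-958N24.1 shares 53.4% of its span with NPIPA1 on the same strand, which changed by -1.09 ± 0.13.

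The 3 protein-coding loci fell by 1.01 to 1.58 on the log2 scale. RP11-139H15.1 (PIGBOS1) had 121, 140 and 137 normalized reads with mitoxantrone, against 280, 275 and 250 with DMSO. AC004381.6 (REXO5) had 47.2, 31.6 and 46.9 with mitoxantrone, against 110, 134 and 134 with DMSO, and lies wholly inside the span of ERI2 on the opposite strand, which changed by -1.18. For RP11-27I1.4 (B3GALT9), the values were 54.4, 77.9 and 81.6 with mitoxantrone, against 172, 162 and 150 with DMSO. In none of the 3 did a library cross between groups.

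**Figure D4:**
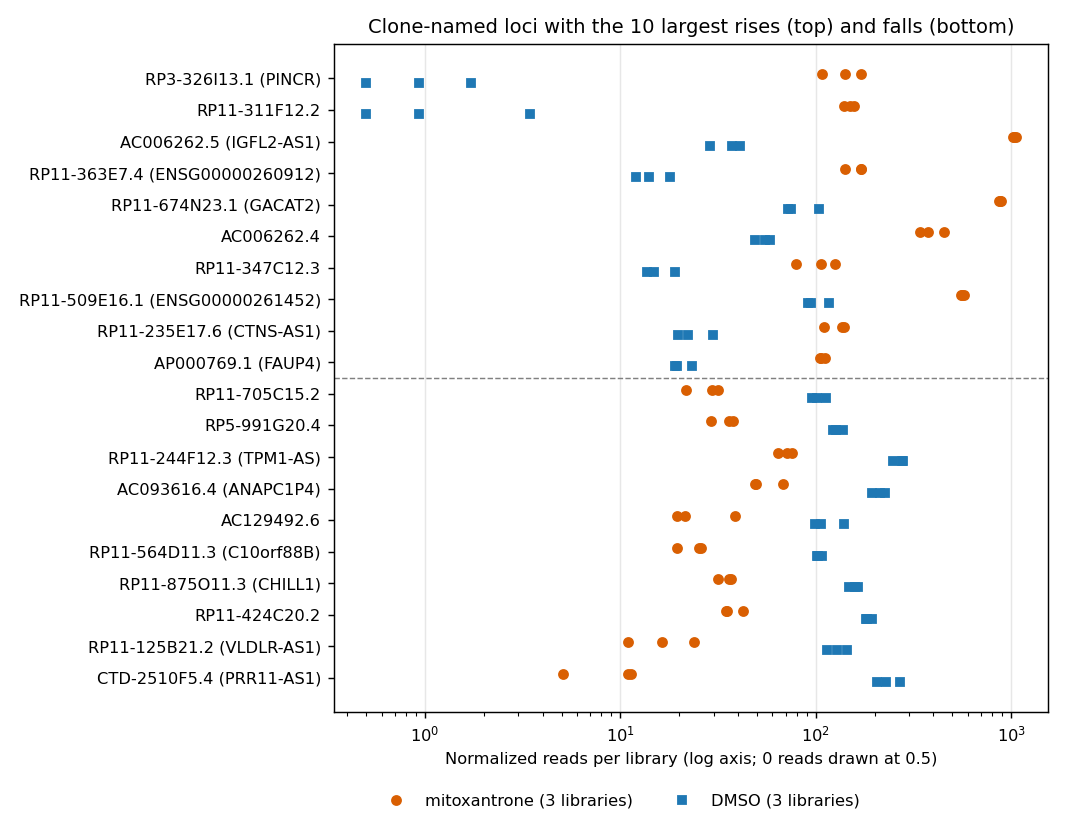
Normalized reads in each of the 6 libraries (x, log axis, 0 drawn at 0.5) for the 10 loci with the largest rises and the 10 with the largest falls (y), with the current symbol where one exists. PINCR and RP11-311F12.2 stand at a few reads or fewer in every DMSO library, and CTD-2510F5.4 at 5.10 to 11.3 reads in the mitoxantrone libraries.

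No mitoxantrone library was low throughout. Among the 48 rising loci, the lowest mitoxantrone value came from library 1, 2 and 3 in 16, 12 and 20 loci, and among the 45 falling loci in 18, 14 and 13. The lowest DMSO value came from library 1, 2 and 3 in 20, 17 and 11 rising loci, and in 10, 13 and 22 falling loci, which is less even. Of the loci nearest the threshold of 50 reads, those just inside were RP11-356M20.1 (RPL7AP75) at a mean of 50.5 raw reads, RP11-475C16.1 at 50.8 and RP11-152N13.5 at 52.3, with log2 fold changes of 1.09, 1.11 and -1.80. Just outside were RP11-499O7.7 at 49.5, AC009133.14 (MVP-DT) at 49.0 and RP11-22P6.3 (ATP2A1-AS1) at 48.7, with log2 fold changes of 1.89, 2.06 and -1.67.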

How the data were processed

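Per the labels, total RNA of 6 A549 samples was sequenced as paired reads, after poly(A) selection or rRNA removal (which of these is not stated). HISAT2 2.0.1, HTSeq 0.6.1, cutadapt 1.9.1, SAMtools 0.1.19, Cufflinks 2.2.1 and DESeq2 appear in the submitters' processing notes. For genome build, annotation and strand setting, these were not given in the sources used here. The deposited table holds raw read counts and FPKM for each sample, the authors' mean normalized count (a normalized signal), their log2 fold change (used here only to state the limits of listing) with its standard error and test statistic (both scores, neither used here), and their p-values, raw and adjusted. It holds listed genes only.

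Size factors were recovered by regressing the deposited mean on the raw counts, and normalized reads are raw counts over these factors. Library totals came from values over 20 FPKM. edgeR 4.0.16 (quasi-likelihood, R 4.3.3) was fitted to the raw counts of all 4546 genes, with Benjamini-Hochberg adjustment, after a test on simulated data. The standard error is the absolute log2 fold change over the square root of F. F draws in part on the spread of all 4546 genes, which were listed for differing between the groups, so these errors may be too small. The biological coefficient of variation was 6.69%. Intervals cover counting error only. limma 3.58.1 and DESeq2 1.42.0 were alternatives. Partners came from deposited coordinates.

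Named loci are those with the 10 largest rises and falls, the 8 highest in normalized reads and in FPKM, those at the threshold, and those with opposite or large partners. Others (RP1-27K12.2, LNCAROD, RP11-134G8.8, CTD-2196E14.9, ZDHHC12-DT, RARA-AS1, WBP1P1, the SMG1 copies and the 3 coding loci) were chosen after their values were seen. The loci and lists were chosen with earlier results of these data known.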

Additional observations from a re-analysis of the deposited data

How the results depend on the processing

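Under every alternative fit, all 93 loci kept their direction and stayed under an adjusted p of 0.05, as did 468 of 468 values of the 36 named loci. This says little of these loci, which the same contrast listed: of all 4546 genes, 4163 to 4546 were called in the same fits, and 3710 of 3710 after a filter on low counts. The median log2 fold change over the loci, 1.03, was 0.93 and 0.54 with limma on log2(FPKM + 0.1) and log2(FPKM + 1), 0.77 with TMM factors on the listed genes, which shift the median of all listed genes by -0.26, and 0.94 with library totals, which shift it by -0.08. It lay between 0.89 and 1.01 with 1 library left out. With 48 loci higher and 45 lower, the median of 1.03 lies at the lower edge of the rising loci. It is no typical change of the set and moves easily. An added 1 FPKM moves 28 loci by more than 1.5 times, since it understates changes of low genes by construction.

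With a threshold of 30 mean reads there were 149 loci, 81 higher and 68 lower, with a median of 1.10 and 38 overlapping a listed gene. With a threshold of 100 there were 54, 27 higher and 27 lower, with a median of 0.0061. A window of 5000 bases gave 7 loci with a head-to-head partner, beside 4, and a gap of 10000 bases gave 19 with a same-strand neighbour, beside 11 (both same-strand gaps were chosen after seeing the data).

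With the replicate block, 48 loci were higher and 45 lower, at a median of 1.03. The deviations of same-numbered libraries from their group means, in log2 normalized reads, correlated at -0.08, -0.09 and 0.03 over 2615 genes. The numbers were therefore not taken to pair the samples. Only listed genes were analysed, so no share of all clone-named loci can be given, and the folds of PINCR and RP11-311F12.2 rest on 3 and 5 DMSO reads.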
